A study of Mus musculus with 8 samples.

Results

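Promoter regions were the H3K27ac regions that the authors' deposited table annotates as Promoter-TSS, 5537 of 112137 regions or 4.94%. H3K27ac, acetylation of histone H3 at lysine 27, was profiled by CUT&Tag, in which an antibody directs a transposase to a chromatin mark so that the DNA beside it can be sequenced. There were 8 libraries of mouse embryonic stem cells, in 4 groups of 2: naive wild type (WT), naive double knockout (DKO), formative WT and formative DKO. The DKO genotype is labelled MLL3KO_MLL4KO, the formative cells had spent 63 hours without LIF2i, the WT cells were of the R1 line, and the DKO samples carry no line name. Replicates were independent cultures according to the series design. The deposited values are 1 pooled log2 value per group, so no SD or n can be given for them. The only comparison with a replicated test is formative against naive WT, by the authors' DiffBind analysis.

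A promoter is the stretch of DNA around a transcription start site (TSS) where RNA polymerase II and the general factors assemble. In mammals many promoters lie in CpG islands, GC-rich stretches that keep the CG dinucleotides lost from most of the genome, and these serve broadly expressed genes. CpG-poor promoters more often belong to genes restricted to some tissues or stages. H3K27ac marks active promoters and enhancers. The genes Kmt2c and Kmt2d encode MLL3 and MLL4, methyltransferases known for placing H3K4me1, monomethylation of histone H3 at lysine 4, at enhancers.

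The annotation was checked against position. The distance from region to TSS ran from -998 to 947 bases, with a median of -109, and 4595 regions lay within 500 bases. A RefSeq start lay inside 4024 of the 5537 regions. The regions were nearest to 5373 genes, of which 140 had 2 or more promoter regions, and 10 regions had no gene name. Median width was 1389 bases, against 1069 for all other regions, and median DiffBind concentration (the authors' mean log2 signal over the WT libraries) was 6.94 against 5.97. The observed over expected ratio of CG dinucleotides, computed over each region in GRCm38, had a median of 0.615 at promoter regions and 0.207 elsewhere. A ratio of at least 0.6, called CpG-rich below, was found at 52.8% of promoter regions and 2.44% of the others.

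The sequences below are the 250 bases before the RefSeq start (GRCm38.p6) of 10 genes whose promoter regions had among the largest differences. In each case the start itself lies inside the acetylated region, and capitals mark CG dinucleotides. The first 5 come from promoters with more H3K27ac in DKO than in WT cells. Slc44a1 is at chr4:53440163-53440412 on the plus strand, Tnpo1 at chr13:98926385-98926634, Dek at chr13:47106222-47106471, Wdr26 at chr1:181211979-181212228 and Smchd1 at chr17:71475344-71475593, the last 4 on the minus strand. They held 38, 33, 41, 26 and 33 CG.
Slc44a1: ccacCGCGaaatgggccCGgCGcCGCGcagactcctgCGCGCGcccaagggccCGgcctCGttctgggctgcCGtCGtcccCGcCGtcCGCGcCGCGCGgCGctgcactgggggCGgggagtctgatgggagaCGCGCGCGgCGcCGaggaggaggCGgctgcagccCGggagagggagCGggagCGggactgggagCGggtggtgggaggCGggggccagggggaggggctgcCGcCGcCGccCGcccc
Tnpo1: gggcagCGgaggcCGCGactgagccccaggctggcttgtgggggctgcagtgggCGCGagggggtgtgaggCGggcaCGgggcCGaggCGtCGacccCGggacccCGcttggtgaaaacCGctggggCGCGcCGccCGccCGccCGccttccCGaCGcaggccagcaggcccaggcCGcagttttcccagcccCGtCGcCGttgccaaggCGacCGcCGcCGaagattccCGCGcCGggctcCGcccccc
Dek: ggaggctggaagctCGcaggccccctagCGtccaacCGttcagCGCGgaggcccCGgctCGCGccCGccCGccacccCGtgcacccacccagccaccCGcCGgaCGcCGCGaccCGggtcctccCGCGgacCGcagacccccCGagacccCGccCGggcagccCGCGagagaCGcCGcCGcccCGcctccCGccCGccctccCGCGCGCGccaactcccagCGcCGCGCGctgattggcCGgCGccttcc
Wdr26: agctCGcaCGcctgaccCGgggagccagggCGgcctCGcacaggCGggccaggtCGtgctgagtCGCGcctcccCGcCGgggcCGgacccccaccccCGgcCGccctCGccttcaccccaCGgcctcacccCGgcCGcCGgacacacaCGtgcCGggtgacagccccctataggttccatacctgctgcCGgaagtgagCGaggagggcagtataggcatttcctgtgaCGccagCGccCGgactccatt
Smchd1: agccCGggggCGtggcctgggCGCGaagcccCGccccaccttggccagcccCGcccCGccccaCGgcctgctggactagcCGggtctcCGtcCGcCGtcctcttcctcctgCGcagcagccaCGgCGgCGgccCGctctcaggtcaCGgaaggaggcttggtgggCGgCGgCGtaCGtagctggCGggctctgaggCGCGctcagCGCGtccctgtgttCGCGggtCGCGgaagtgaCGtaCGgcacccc

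The next 3 come from promoters with less H3K27ac in DKO cells. Slc5a11 is at chr7:123214616-123214865 and Dnmt3l at chr10:78049592-78049841, both on the plus strand, and Nanos3 at chr8:84176553-84176802 on the minus strand. They held 2, 4 and 3 CG. The printed genes were picked from the named ones, so the contrast with the first 5 describes these sequences only. Over their whole regions the CpG ratios were 0.09, 0.25 and 0.17, and some other large losses had higher ratios, as given below.
Slc5a11: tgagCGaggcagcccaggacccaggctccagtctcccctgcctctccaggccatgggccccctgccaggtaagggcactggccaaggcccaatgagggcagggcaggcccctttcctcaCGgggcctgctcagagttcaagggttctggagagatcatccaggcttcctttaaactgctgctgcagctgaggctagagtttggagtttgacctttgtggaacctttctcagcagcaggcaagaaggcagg
Dnmt3l: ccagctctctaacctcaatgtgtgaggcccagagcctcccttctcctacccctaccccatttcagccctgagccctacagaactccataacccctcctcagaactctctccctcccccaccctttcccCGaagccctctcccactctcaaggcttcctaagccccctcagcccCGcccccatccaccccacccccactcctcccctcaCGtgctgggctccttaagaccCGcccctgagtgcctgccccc
Nanos3: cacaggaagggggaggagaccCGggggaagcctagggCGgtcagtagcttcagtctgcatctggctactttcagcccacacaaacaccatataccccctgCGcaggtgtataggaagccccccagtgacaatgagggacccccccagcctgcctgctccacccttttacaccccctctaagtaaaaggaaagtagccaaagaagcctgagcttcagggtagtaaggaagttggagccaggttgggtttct

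The last pair come from promoters that changed most between the WT states. Zfp42, which lost H3K27ac, is at chr8:43307010-43307259, and Lrrn4, which gained it, at chr2:132880863-132881112, both on the minus strand. They held 9 and 5 CG.
Zfp42: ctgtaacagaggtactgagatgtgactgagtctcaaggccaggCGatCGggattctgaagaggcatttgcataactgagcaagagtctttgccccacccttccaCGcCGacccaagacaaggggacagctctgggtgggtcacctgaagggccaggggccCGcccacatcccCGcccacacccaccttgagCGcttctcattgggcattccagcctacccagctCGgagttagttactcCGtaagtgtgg
Lrrn4: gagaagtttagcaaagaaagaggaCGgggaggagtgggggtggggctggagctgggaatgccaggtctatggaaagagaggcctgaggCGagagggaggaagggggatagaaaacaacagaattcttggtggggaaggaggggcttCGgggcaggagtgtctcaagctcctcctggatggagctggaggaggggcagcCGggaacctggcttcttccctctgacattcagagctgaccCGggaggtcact

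Of the targeted genes, Kmt2d had a promoter region (chromosome 15, 1252 bases) and Kmt2c had none. Pooled H3K27ac at the Kmt2d promoter was 8.98 in naive WT, 8.85 in formative WT, 9.32 in naive DKO and 9.76 in formative DKO. That promoter was not lower in either DKO group. In the authors' deposited table Kmt2d RNA was lower in DKO by a log2 fold of -0.72 in naive and -0.84 in formative cells. Which parts were deleted is not stated there, so neither value checks the knockout.

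Pooled levels fell with region width (exponents -1.975 and -1.997 in the WT groups), so levels are compared between groups within a region and never between regions. Scaling between groups is not stated, and total reads are unknown. Making the median over all regions equal, for example, shifts every region by -0.45 (formative against naive WT), 0.29 (naive DKO against WT) and 0.77 (formative DKO against WT) on the log2 scale. Differences between promoter and other regions are not touched by such a shift, so they are given beside each absolute value. Of the promoter regions, 5452 were above 0 in all groups and enter the pooled comparisons, 52 were at 0 in naive WT, 1 in formative WT, 29 in naive DKO and 18 in formative DKO.

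Without MLL3 and MLL4, naive cells had more H3K27ac at most promoter regions than naive WT cells, while the other regions as a group had slightly less. The median log2 difference was 0.58 at promoter regions (interquartile range -0.02 to 1.17) and -0.15 at all others. At least 2-fold more H3K27ac was found at 1682 promoter regions, 30.9%, and at least 2-fold less at 443, 8.13%. Over all 105643 regions the shares were 19.2% and 26.3%, or 45.6% in either direction. The higher share of called promoter regions was 79.2%, but 49.6% when groups were scaled to the promoters of ribosomal protein and respiratory chain genes. No p-value can be given for this or the other DKO comparisons. Genes ranked below come from the 2658 promoters, 1 per gene, that were at least 500 bases wide and above the median signal. Promoters of lower signal can differ by more, as Igfbp3 does.

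Among these, the largest naive gains were at promoters where naive WT was the lowest group, an order that ranking on the naive difference favours. Tinagl1, encoding a matricellular protein, had 4.45 in naive WT, 7.09 in formative WT, 8.92 in naive DKO and 8.15 in formative DKO. Wdr26, a subunit of a ubiquitin ligase, had 6.11, 8.35, 10.40 and 10.57 in the same order, a naive difference of 4.29. Both DKO groups stood above both WT groups at these promoters. Smchd1, a protein of the SMC family needed for X inactivation, had 5.21, 7.94, 9.34 and 9.04. Bcl9l, a coactivator of beta-catenin, had 5.81, 8.41, 9.66 and 9.94. Nuak1, a kinase related to AMPK, had 5.57, 7.43, 9.23 and 9.54, and the uncharacterised D830031N03Rik had 5.65, 8.50, 9.25 and 9.84. Nuak1 RNA was higher in DKO as well, by 1.66 in naive and 2.66 in formative cells in the authors' deposited table. Wdr26 RNA was at 0.68 and 0.30 there, and Smchd1 RNA at 0.45 and -0.15.

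The 6 largest naive losses among the ranked promoters had CpG ratios from 0.09 to 0.50. Slc5a11, a sodium-coupled inositol transporter, had 9.06 in naive WT, 7.61 in formative WT, 5.83 in naive DKO and 6.42 in formative DKO. Dnmt3l, the regulatory partner of the de novo DNA methyltransferases, had 8.11, 5.79, 5.21 and 4.73. Slc15a1, a peptide transporter, had 9.28, 5.83, 6.42 and 4.93. At these 3 promoters naive WT stood above the other groups, which the ranking again favours. RNA in the authors' deposited table was lower in naive DKO for each: -2.96 for Slc5a11, -3.53 for Dnmt3l and -3.31 for Slc15a1. H3K4me1 in the authors' deposited table was lower at Slc5a11 (-1.29) and Dnmt3l (-1.39), but at 0.43 for Slc15a1. Adipor2 (9.08, 6.56, 5.29 and 6.27) and Prrt3 (8.31, 5.26, 5.03 and 4.99) showed a similar order without an RNA difference at Adipor2 (-0.38). Both lie on chromosome 6, whose promoters stand apart as a whole, as described below. Spry4, a feedback inhibitor of ERK signalling, had 9.60, 8.42, 7.14 and 9.69, so the naive DKO cells alone were low. The 4 levels of these and other named promoters are plotted by gene.

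**Figure D1:**
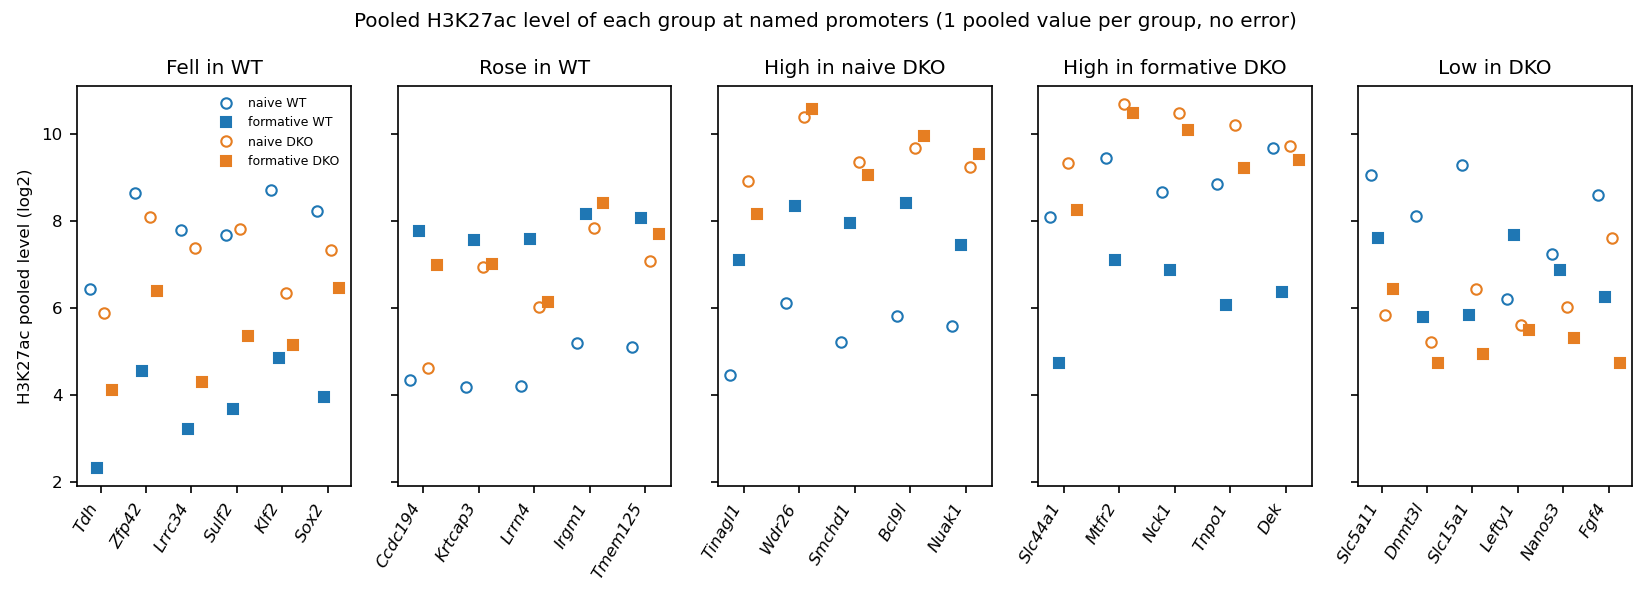
Pooled H3K27ac level (log2, vertical axis) in naive WT (open blue circles), formative WT (blue squares), naive DKO (open orange circles) and formative DKO (orange squares) at named promoters (horizontal axis), 1 pooled value per group with no error. Wdr26 is at 6.11 in naive WT and at 10.40 in naive DKO, while Slc5a11 is at 9.06 and 5.83. Levels depend on region width and can be compared within a gene only.

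In formative cells the separation between promoters and the rest of the regions was wider. The median difference, DKO minus WT, was 0.79 at promoter regions (interquartile range 0.01 to 1.34) and -0.69 elsewhere. At least 2-fold more H3K27ac was found at 2201 promoter regions, 40.4%, and at least 2-fold less at 628, 11.5%. Over all regions 11.2% were higher and 39.3% lower, 50.5% in all. The higher share of called promoter regions was 77.8%, rising to 92.1% with equal medians and 90.4% after quantile normalization. It dropped to 11.3% with the ribosomal and respiratory scaling, under which the promoter median was -0.39 and that of all regions -1.80.

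The 6 largest formative gains among the ranked promoters were at CpG-rich ones, with ratios from 0.74 to 1.02. Formative WT was their lowest group, an order that ranking on the formative difference favours. Slc44a1, a choline transporter, had 8.08 in naive WT, 4.74 in formative WT, 9.33 in naive DKO and 8.25 in formative DKO. Mtfr2, a regulator of mitochondrial fission, had 9.45, 7.10, 10.68 and 10.47. Pgd, an enzyme of the pentose phosphate pathway, had 8.77, 6.69, 10.65 and 9.98. Nck1, a signalling adaptor, had 8.66, 6.86, 10.48 and 10.09, and Tnpo1, a nuclear import receptor, 8.85, 6.06, 10.20 and 9.20. Dek, a chromatin protein, had 9.66, 6.36, 9.73 and 9.40. At Dek the naive groups were alike, and formative WT alone was low. Among the 5 of these genes with a value, RNA in formative DKO was within 2-fold of WT in the authors' deposited table. The folds ran from -0.03 for Dek to 0.87 for Nck1.

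The 6 largest formative losses among the ranked promoters had CpG ratios from 0.14 to 0.49. Outside that ranking Igfbp3 (ratio 0.90, 904 bases) differed by -5.37. Lefty1, an inhibitor of Nodal signalling, had 6.21 in naive WT, 7.67 in formative WT, 5.60 in naive DKO and 5.49 in formative DKO. Its RNA was at -1.52 in formative cells in the authors' deposited table. Fgf4, a ligand that drives exit from the naive state through ERK, had 8.58, 6.25, 7.61 and 4.73, and its RNA was at -0.55 there. At Lefty1 the acetylation present in formative WT was not matched in either DKO group. The promoters of Wnt5b (7.63, 8.11, 5.53 and 6.30), the microRNA gene Mir7237 (6.13, 7.33, 5.02 and 5.56), Srrm4os (6.95, 5.66, 5.07 and 3.99) and Nanos3, a germ cell RNA-binding protein (7.24, 6.87, 6.01 and 5.30), were lower in DKO in both states. With equal medians or quantile normalization the formative differences of Mir7237, Srrm4os, Nanos3 and Fgf4 were under 2-fold, with the smallest at -0.81, -0.54, -0.54 and -0.41.

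Promoter regions differed from other regions at equal signal and equal width as well. Within quintiles of concentration, promoter regions exceeded other regions by 0.66 to 0.89 in naive cells and by 0.47 to 1.27 in formative cells. Within quintiles of width the excess was 0.62 to 0.87 and 1.08 to 1.46. After loess offsets against level it was 0.56 and 0.66 over all promoter regions. The promoter median itself was not above 0 in every quintile. In formative cells it was -0.98 in the lowest concentration quintile, 0.14 in the next and 1.02 in the highest. In the narrowest width quintile it was -0.24. The class annotated as 5'UTR, which also lies next to start sites, was close to promoters, with medians of 0.53 and 0.64 over 612 regions. Intergenic regions were the lowest class in both states, as the plot by annotation class shows.

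**Figure D2:**
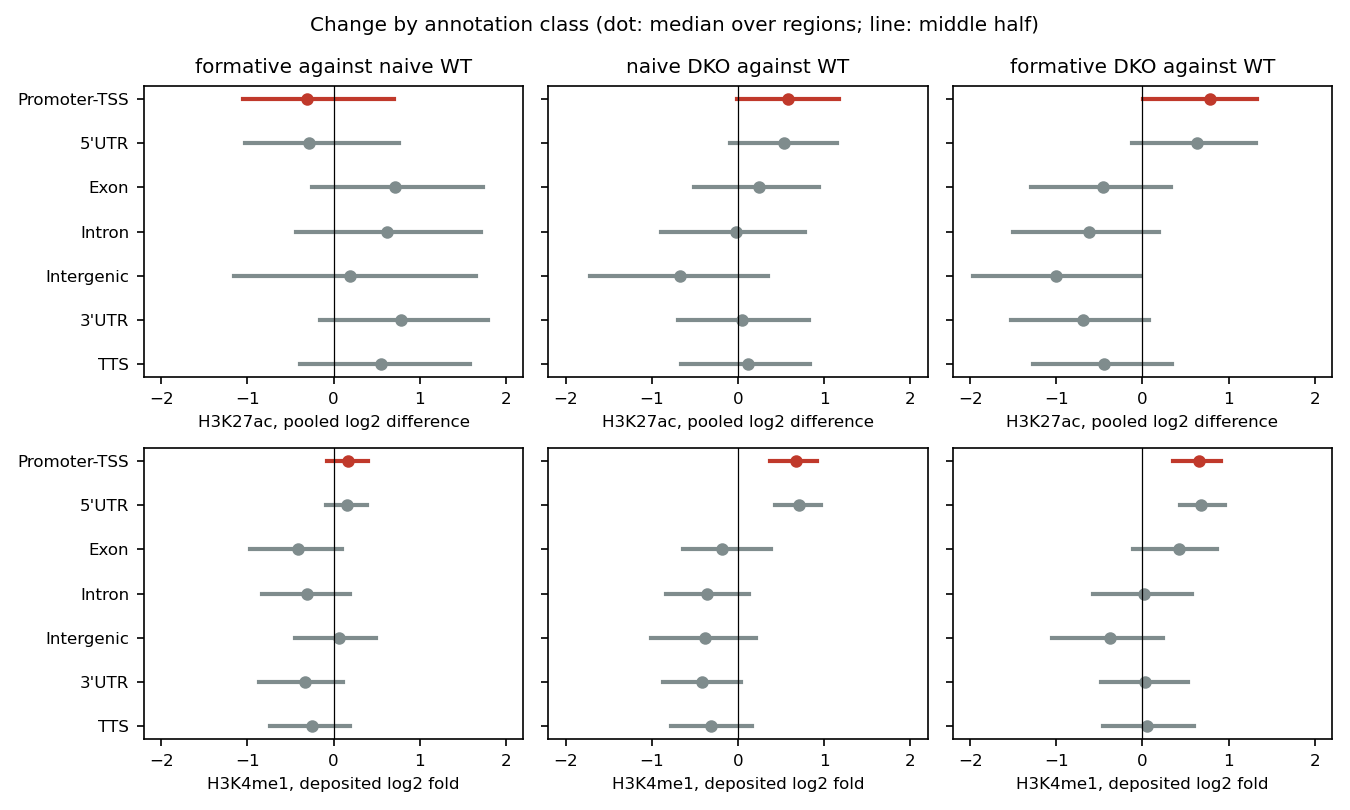
Change of H3K27ac (upper row, pooled log2 difference) and of H3K4me1 (lower row, the authors' deposited log2 fold) by annotation class (vertical axis) in 3 comparisons. Dots are medians over regions and lines the interquartile range. Promoter-TSS (red) has H3K27ac medians of -0.31, 0.58 and 0.79 from left to right, and 5'UTR lies beside it in each panel.

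CpG content ordered the promoter regions. In formative cells the DKO minus WT median was -0.74 for 411 promoter regions with a ratio under 0.2, -0.03 from 0.2 to 0.4 (836 regions), 0.80 from 0.4 to 0.6 (1293), 0.99 from 0.6 to 0.8 (2040) and 1.02 at 0.8 and over (872). In naive cells the same bins were at -0.13, 0.39, 0.61, 0.63 and 0.67. Of the 2912 CpG-rich promoters, 50.2% had at least 2-fold more H3K27ac in formative DKO and 4.22% at least 2-fold less. Of the 1247 with a ratio under 0.4, called CpG-poor here, 18.4% were higher and 32.7% lower. The CpG-rich minus CpG-poor difference was 0.38 in naive and 1.27 in formative cells. It stayed above 0 in each concentration quintile, from 0.26 to 0.96 and from 0.59 to 1.87, and was 0.27 and 0.61 after loess offsets.

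CpG content also set apart the regions that are not promoters. Of these, 1867 had a ratio from 0.6 to 0.8 and 690 a higher one, and their formative DKO minus WT medians were 0.72 and 1.00, near those of promoters. Between 0.4 and 0.6, however, the other regions were at -0.92 where promoter regions were at 0.80. Under 0.2 both kinds were alike, at -0.76 and -0.74. Annotation separated regions of middle CpG content, and CpG-rich and the most CpG-poor regions differed less by annotation. The separate parts of annotation and CpG content were not tested.

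**Figure D3:**
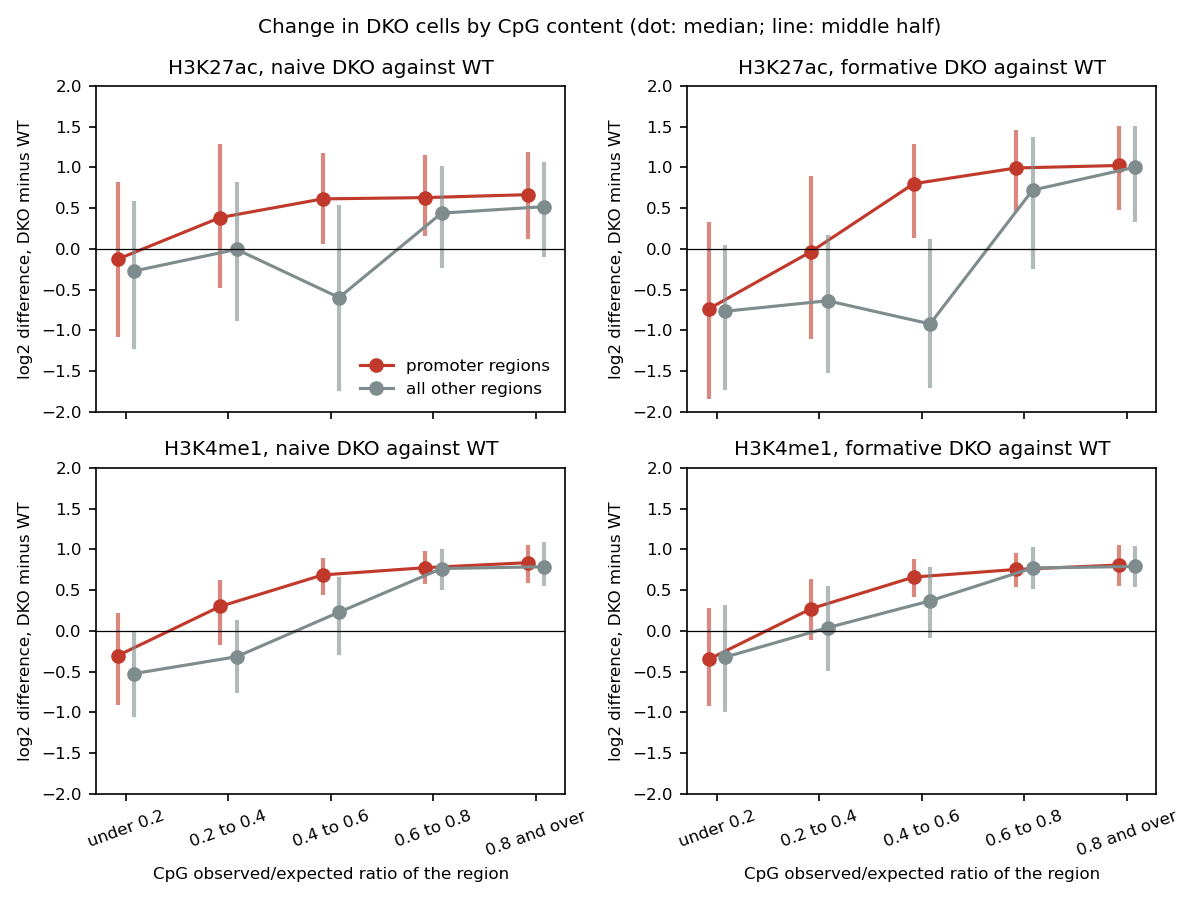
DKO minus WT (vertical axis, log2) by CpG observed over expected ratio of the region (horizontal axis), for H3K27ac (upper panels, pooled values) and H3K4me1 (lower panels, the authors' deposited folds). Dots are medians over promoter regions (red) or all other regions (grey), and lines the interquartile range. In formative cells promoter H3K27ac goes from -0.74 to 1.02, and the kinds part most from 0.4 to 0.6.

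H3K4me1, taken from libraries outside this series, showed the same order. In the authors' deposited table the median DKO against WT fold at promoter regions was 0.68 in naive and 0.66 in formative cells, against -0.35 and -0.05 at other regions. At least 2-fold more H3K4me1 was found at 1000 promoter regions (18.3%) and at least 2-fold less at 131 (2.40%) in naive DKO, where 5.03% of all regions were higher and 18.7% lower (23.8% in all). In formative DKO the counts were 1004 and 123, against 10.5% and 16.0% of all regions (26.5% in all). Between the states the mark moved little at promoters: 105 had 2-fold more and 84 had 2-fold less in formative WT, beside 5.88% and 15.5% of all regions (21.4% in all), and 33 and 18 did so in DKO, beside 2.75% and 2.93% (5.68% in all). None of the 2912 CpG-rich promoters had 2-fold less in naive DKO and 1 had in formative DKO, in the authors' deposited table. CpG-poor promoters had medians of 0.14 in both states and 10.4% were at least 2-fold lower in naive DKO. Across the 5452 promoter regions the 2 marks' DKO differences had a Spearman correlation of 0.22 in naive and 0.29 in formative cells. Regions of 1 gene or neighbourhood are not independent, and scaling of the H3K4me1 columns is not stated either.

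Promoters where H3K27ac was 2-fold lower were also those where H3K4me1 gained least. In the authors' deposited table the naive H3K4me1 median was 0.74 at promoters with 2-fold more H3K27ac in DKO, 0.68 at those within 2-fold and 0.25 at those with 2-fold less. The formative medians were 0.75, 0.65 and 0.12.

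Between the naive and formative states of WT cells, more promoter regions fell than rose. By the authors' test (adjusted p under 0.05), 1433 promoter regions fell (25.9%) and 589 rose (10.6%), 36.5% in all. Among all regions 36.6% were called, 15.8% lower and 20.8% higher. So the share called was that of the background and its direction was not. Median log2 folds were -1.45 at the falling and 2.57 at the rising promoters in the authors' deposited table. By pooled values 1455 were at least 2-fold lower and 1110 higher, where 57.0% of all regions were past 2-fold. The higher share of called regions was 43.3%, against 25.6% with equal medians, 26.9% after quantile normalization and 82.1% with the ribosomal and respiratory scaling.

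That direction followed the level of the regions. In the lowest quintile of concentration 35.7% of promoter regions rose and 1.61% fell, close to the other regions (37.6% and 1.98%). In the highest quintile 4.92% rose and 47.7% fell, against 16.5% and 44.6% of the others. The median pooled difference between promoters and other regions was -0.84 overall but between -0.25 and -0.0013 within quintiles, and -0.03 after loess offsets. Falling promoters in WT thus were mostly regions of high signal.

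Rising promoters were more often CpG-poor: 50.7% of the rising and 15.7% of the falling ones had a ratio under 0.4, and 26.3% and 59.1% were CpG-rich. The median ratio was 0.39 at the 529 rising promoters above 0 in all groups and 0.64 at the 1432 falling ones. Of 227 rising genes with an RNA value, 95 had at least 2-fold more RNA in formative WT (41.9%) by the authors' deposited table, beside 17.1% of the 9781 genes with RNA folds (26.8% in either direction). Of 833 values at falling promoters 102 were at least 2-fold lower (12.2%), against 9.65% of genes. Of the 3013 genes with an RNA fold and a promoter region, 12.6% were at least 2-fold higher and 7.1% lower.

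Among the ranked promoters, those that rose most by the authors' fold included the coiled-coil gene Ccdc194, with 4.33 in naive WT, 7.76 in formative WT, 4.61 in naive DKO and 6.98 in formative DKO. Its fold was 3.51 in the authors' deposited table (DiffBind adjusted p = 1.15e-37), and its RNA fold there was 4.35. Lrrn4, a leucine-rich repeat membrane protein, had 4.20, 7.57, 6.02 and 6.13, and Krtcap3 had 4.19, 7.56, 6.94 and 7.01. At both the DKO groups were level with each other, between the WT states. Irgm1, an interferon-induced GTPase, had 5.19, 8.15, 7.84 and 8.42, and Tmem125 5.10, 8.06, 7.07 and 7.70. Gm13648 had 6.11, 9.20, 7.56 and 8.42. RNA of Lrrn4 was at 3.50 and that of Krtcap3 at 2.73, formative against naive WT, in the authors' deposited table.

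The ranked promoters that fell most by the authors' fold included Tdh and Zfp42, genes of the naive state. Tdh, threonine dehydrogenase, had 6.44 in naive WT, 2.31 in formative WT, 5.88 in naive DKO and 4.11 in formative DKO (fold -4.66 in the authors' deposited table, DiffBind adjusted p = 1.15e-51). Zfp42 (REX1), a zinc finger marker of naive cells, had 8.64, 4.54, 8.08 and 6.37 (fold -4.10 in the authors' deposited table, DiffBind adjusted p = 2.92e-91). At both genes formative DKO kept a level between those of formative and naive WT. Lrrc34 had 7.79, 3.21, 7.37 and 4.30, and Sulf2, a heparan sulfatase, 7.67, 3.68, 7.82 and 5.35. Klf2, a Krüppel-like factor, had 8.70, 4.83, 6.34 and 5.14, so naive DKO was already low there. Trmt44 had 8.66, 4.78, 7.50 and 5.90.

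Between the states of DKO cells fewer promoter regions were past 2-fold than in WT, but the gap itself has no test. The median difference, formative minus naive, was -0.17 at promoter regions and -0.06 at others. A formative excess of 2-fold or more was seen at 491 promoter regions of DKO cells (9.01%) and a deficit of that size at 531 (9.74%). Over all regions these shares were 16.6% and 17.9%, 34.6% in all. The higher share of calls was 48.0%, and 63.0% with equal sums or 67.0% with the ribosomal and respiratory scaling. The WT calls come from other libraries and so can be set against the DKO values. In DKO, promoters that rose in WT had a median of 0.32, those not called -0.08 and those that fell -0.41. At least 2-fold more was found at 24.6% of the risen and 1.61% of the fallen, and at least 2-fold less at 8.88% and 13.4%.

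The largest DKO gains among the ranked promoters were at Snai3, a snail family factor (5.17 in naive WT, 7.06 in formative WT, 4.54 in naive DKO and 7.19 in formative DKO), Spry4 and Ccdc194. Bcar1, an adhesion adaptor, had 5.60, 6.94, 5.52 and 7.52. Dok2, an adaptor of receptor kinases, had 5.56, 7.52, 5.50 and 7.47, and Tead3, a factor of the Hippo pathway, had 6.47, 8.43, 7.11 and 8.76. At Dok2 the states differed by 1.96 in WT and 1.97 in DKO, although H3K4me1 there was lower in DKO by -1.45 and -1.14 in the authors' deposited table. The largest DKO losses among the ranked promoters were at Slc29a1, a nucleoside transporter (7.31, 4.66, 8.16 and 4.92), Lrrc34, Fgf4, Mymx, a muscle fusion peptide (7.59, 4.58, 7.90 and 5.06), Arih2, a ubiquitin ligase (7.22, 3.87, 7.13 and 4.62), and S100a1, a calcium-binding protein (8.002, 6.62, 8.74 and 6.27). At Slc29a1, Mymx and Arih2 both genotypes lost acetylation by over 2.5 on the log2 scale.

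The difference of the differences, state change in DKO minus that in WT, had a median of 0.21 at promoter regions and -0.43 at others. It was at least 1 at 1196 promoter regions (21.9%) and at most -1 at 1063 (19.5%), where 19.5% and 36.3% of all regions were so (55.8% in all). Its higher share of calls was 52.9%, but 73.7% with equal medians, 75.7% after quantile normalization and 21.6% with the ribosomal and respiratory scaling. CpG-rich promoters were at 0.38 and CpG-poor ones at -0.41. Among the ranked promoters, beyond Spry4 and Adipor2, the highest values were at Upp1, uridine phosphorylase (8.58 in naive WT, 5.53 in formative WT, 6.56 in naive DKO and 6.88 in formative DKO), Lypla1, a thioesterase (10.01, 6.07, 8.86 and 8.27), Ss18l1, a subunit of BAF complexes (8.83, 6.24, 7.74 and 8.38), and A230028O05Rik (8.74, 5.11, 7.42 and 7.01). All 4 fell in WT and differed by less than 1 in DKO. Beyond Tinagl1, Krtcap3, Lrrn4 and Smchd1 the lowest ranked ones were at Dpf2, another BAF subunit (6.24, 7.87, 9.35 and 8.40), and Tagln2, an actin-binding protein (7.60, 9.08, 9.42 and 8.44). These comparisons share their pooled columns, so the values stand side by side and no overlap is given.

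Gene lists were counted over 1 promoter region per gene. Of 24 naive pluripotency genes 7 had a promoter region, and all 7 fell in WT by the authors' test, as did 25.9% of promoter regions, with a median pooled difference of -3.24 against -0.31 over promoter regions. Besides Zfp42, Klf2, Fgf4 and Tdh they were Klf4 (9.19 in naive WT, 6.45 in formative WT, 9.86 in naive DKO and 8.69 in formative DKO), Tbx3 (8.23, 5.66, 8.80 and 7.68) and Spp1, osteopontin (8.92, 5.68, 8.77 and 7.87). In formative cells 5 of the 7 were at least 2-fold higher in DKO (40.4% of promoter regions were), with a list median of 1.83. In naive cells 1 was at least 2-fold lower (8.13% of promoter regions were), with a median of -0.56. The directions of both state changes and of both DKO medians were kept under the 5 scalings. Spp1 RNA was higher in formative DKO by 1.89 and Zfp42 RNA by 0.80 in the authors' deposited table.

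Of 6 core pluripotency genes with a promoter region 5 fell in WT, beside 25.9% of promoter regions. Sox2, a factor shared by the naive and formative states, had 8.23 in naive WT, 3.96 in formative WT, 7.32 in naive DKO and 6.46 in formative DKO. Its WT fold was -4.77 in the authors' deposited table (DiffBind adjusted p = 5.72e-35), beside an RNA fold of -0.92 there. Zfp281 had 9.41, 7.51, 9.63 and 10.12, Dppa4 7.72, 5.19, 6.96 and 6.66, and Mybl2, a cell cycle factor, 8.07, 4.85, 7.73 and 6.08. Utf1 was not called (8.56, 8.06, 6.36 and 7.39), and its RNA was at -2.72 in naive DKO in the authors' deposited table. In formative cells 4 of the 6 were at least 2-fold higher in DKO, beside 40.4% of promoter regions.

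Of 25 formative pluripotency genes 8 had a promoter region, of which Sall2 and Pim2 rose in WT, where 10.6% of promoter regions rose. Sall2, a zinc finger factor, had 6.65 in naive WT, 8.09 in formative WT, 6.50 in naive DKO and 6.68 in formative DKO, so only formative WT was high. Pou3f1, a POU factor, had 6.73, 8.19, 8.61 and 6.74. Igfbp3 had 7.08, 8.35, 8.23 and 2.99 over 904 bases. In formative DKO 3 of the 8 were at least 2-fold lower (Pou3f1, Sall2, Igfbp3), beside 11.5% of promoter regions. The list median there was -0.11 and turned positive with equal medians, equal sums or quantile normalization. RNA of Pou3f1 was at 0.47 and of Igfbp3 at -0.49 in formative DKO in the authors' deposited table.

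Among the 11 promoters of ERK response genes, 5 were at least 2-fold lower in naive DKO, where 8.13% of promoter regions and 26.3% of all regions were, with a list median of -0.39 against 0.58 over promoter regions, and its sign held under the 5 scalings. They were Spry4, Dusp5 (7.45 in naive WT, 8.85 in formative WT, 5.44 in naive DKO and 7.85 in formative DKO), Etv4 (7.60, 5.49, 5.97 and 6.32), Ier3 (8.89, 8.73, 7.43 and 9.47) and Myc (9.08, 9.04, 8.06 and 9.93). Dusp5 is an ERK phosphatase, Etv4 an ETS factor, Ier3 an early response gene and Myc a growth regulator. In the authors' deposited table RNA in naive DKO was at -0.90 for Dusp5, -1.25 for Etv4 and 0.09 for Ier3. In formative DKO Spry4 and Egr1 were at least 2-fold higher and Dusp5 lower, 2 and 1 of 11 beside 40.4% and 11.5% of promoter regions. Of 5 LIF and STAT3 promoters 3 fell in WT (Stat3, Socs2, Sgk1), where 25.9% of promoter regions did.

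Promoters of several larger gene lists carried more acetylation in formative DKO. At least 2-fold more was found at 11 of 12 housekeeping, 23 of 40 ribosomal protein, 19 of 30 respiratory chain, 18 of 22 clustered histone and 72 of 134 Zfp-named zinc finger promoters, with medians of 1.58, 1.12, 1.14, 1.59 and 1.03. All promoter regions were at 40.4% and a median of 0.79, and the CpG-rich ones at 50.2% and 1.00. The Zfp list was made by symbol only and includes Zfp42. Scaling to ribosomal and respiratory promoters turned the ribosomal, respiratory and Zfp medians negative, to -0.05, -0.03 and -0.14 (the first pair are near 0 by construction), and left those of the housekeeping and histone lists positive. In WT 9 of 12 housekeeping, 18 of 40 ribosomal, 11 of 30 respiratory, 13 of 22 histone and 52 of 134 Zfp promoters fell, where 25.9% of promoter regions did. In the highest concentration quintile 47.7% of promoter regions fell, and the lists were not matched for signal. Rpl8, a ribosomal protein of the large subunit, had 9.25 in naive WT, 5.13 in formative WT, 8.88 in naive DKO and 8.60 in formative DKO. Ywhaz, a 14-3-3 protein, had 9.49, 6.06, 8.82 and 8.73, and Psmb2, a proteasome subunit, 9.43, 7.54, 10.17 and 10.23. Formative WT alone was low at these promoters. RNA of Rpl8 was at -0.33 and of Psmb2 at 0.38 in formative DKO in the authors' deposited table.

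Chromatin genes followed the broad pattern. None of 16 promoters of the H3K4 methylation and acetylation machinery was 2-fold lower in DKO in either state. At least 2-fold more was found at 7 in naive and 10 in formative DKO, beside 30.9% and 40.4% of promoter regions, with medians of 0.82 and 1.16. The formative median became -0.02 with the ribosomal and respiratory scaling. Ep300, the acetyltransferase p300, had 8.63 in naive WT, 7.38 in formative WT, 9.72 in naive DKO and 9.23 in formative DKO. Setd1b, an H3K4 methyltransferase, had 7.84, 7.03, 9.34 and 8.65, and Men1, which encodes menin, 7.47, 7.03, 8.56 and 8.97. Of 6 polycomb promoters 5 fell in WT (Ezh2, Suz12, Jarid2, Epop, Rybp), beside 25.9% of promoter regions, and Ezh2 had 9.47, 7.63, 9.45 and 8.43.

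**Figure D4:**
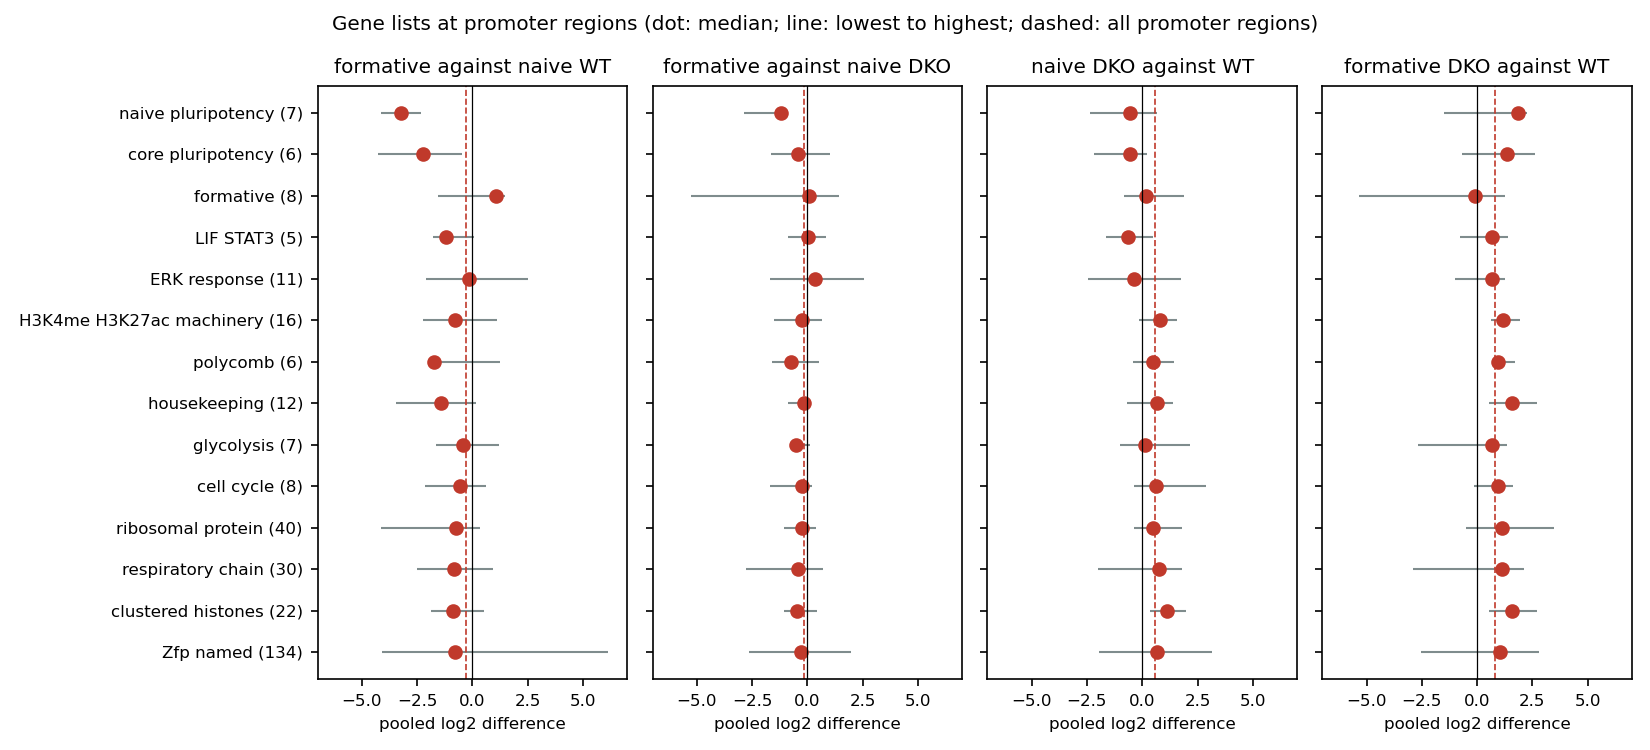
Pooled log2 difference (horizontal axis) of the promoter regions of each gene list with at least 5 members (vertical axis, number of members in brackets) in 4 comparisons. Dots are list medians, lines run from the lowest to the highest member, and the dashed line is the median of all promoter regions. The naive pluripotency list is at -3.24 in WT and at -1.20 in DKO between the states.

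Markers of other cell types had few promoter regions: 4 of 14 primitive endoderm, 3 of 14 trophoblast and 1 of 12 fibroblast genes, and none of the germline, Hox or developmental factor lists. Dab2, a primitive endoderm marker, was at 0 in naive WT, 8.74 in formative WT, 10.01 in naive DKO and 10.25 in formative DKO over 721 bases. The keratins Krt8 (4.12, 6.65, 6.91 and 7.76) and Krt19 (2.28, 8.48, 7.48 and 8.16) were lowest in naive WT. So was Pdgfra (7.14, 8.52, 9.12 and 8.06), another gene of the primitive endoderm list. Other markers on the lists went otherwise: Gata2 had 9.58, 10.81, 9.50 and 7.93, Col4a2 8.25, 9.04, 8.24 and 7.75, and Lamc1 8.58, 7.24, 9.04 and 8.97. Gata2, Col4a2, Pdgfra and Krt19 were lower in formative DKO than in formative WT. RNA of Dab2 was at 2.85, of Krt8 at 1.71 and of Krt19 at 1.94 in naive DKO in the authors' deposited table. Vim, expressed by fibroblasts among others, had 8.85, 5.56, 9.49 and 9.34. The part of other cell types in the DKO differences was not tested.

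RNA of the nearest gene followed promoter acetylation only in part. Among 3013 genes with an RNA fold and a promoter region, 188 had at least 2-fold less promoter H3K27ac in naive DKO, and RNA was at least 2-fold lower for 67 of them (35.6%) and higher for 4. Of the 942 with at least 2-fold more, RNA was higher for 91 (9.66%) and lower for 36 (3.82%). Over all genes with RNA folds 8.54% were higher and 11.2% lower, 19.8% in all. Among the 3013 genes these shares were 6.21% and 7.87%. In formative DKO RNA was lower for 33 of 221 genes with less acetylation (14.9%). Of 1299 with more, it was higher for 62 (4.77%) and lower for 7 (0.539%). Over all genes 5.87% were higher and 5.05% lower (10.9% in all), and among the 3013 genes 3.82% and 2.99%. Between the states of DKO cells RNA was higher for 98 of 238 genes with more acetylation (41.2%). It was lower for 47 of 261 with less (18.0%). Of all genes 18.0% were higher and 5.15% lower (23.1% in all), and of the 3013 genes 13.3% and 3.72%. Median RNA folds in the authors' deposited table were 0.05 in naive and 0.06 in formative DKO at these genes, beside 0.03 and 0.06 over all genes. Genes with more promoter acetylation in DKO thus rarely had 2-fold less RNA, and most of them were within 2-fold. Spearman correlations across the 3013 genes were 0.26 in naive and 0.18 in formative cells, and 0.32 for formative against naive WT. Genes are not independent replicates, and the unit of the RNA levels is not stated.

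**Figure D5:**
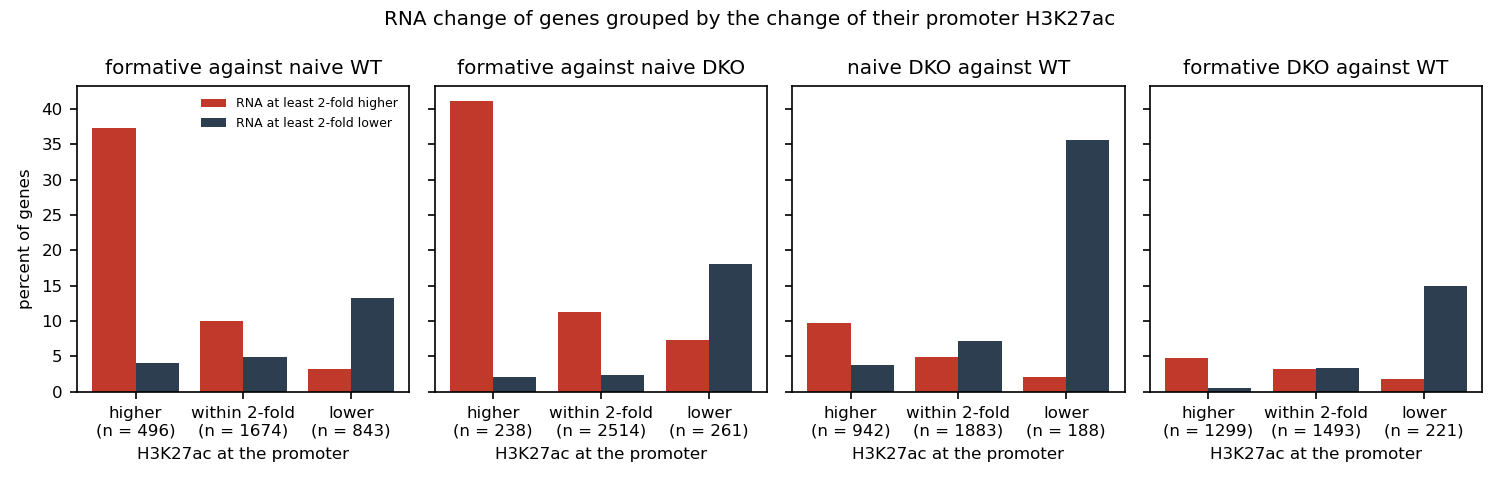
Percent of genes (vertical axis) with RNA at least 2-fold higher (red) or lower (dark) in the authors' deposited table, for genes whose promoter H3K27ac was at least 2-fold higher, within 2-fold or at least 2-fold lower (horizontal axis, n genes), in 4 comparisons. In naive DKO 35.6% of the genes with lower acetylation had lower RNA.

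By RNA level in naive WT, the most expressed genes had the larger formative difference. From the lowest to the highest quintile of genes the formative DKO minus WT medians were 0.38, 0.74, 0.93, 1.00 and 1.03. The naive medians were 0.54, 0.62, 0.69, 0.64 and 0.53, with no such order. Formative minus naive WT medians went from 0.31 to -0.87 over the same quintiles. Their median CpG ratios were 0.56, 0.64, 0.68, 0.68 and 0.67, and the formative difference also rose with concentration, as given above. The separate parts of RNA level, CpG content and signal were not tested.

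Short motifs were searched on both strands of the 300 bases around the start (250 before, 50 after) of 3739 genes whose RefSeq start lay inside their promoter region. RefSeq promoters matched 4147 of 5373 genes by symbol. The GC box core CCGCCC was present in 67.5% of them, beside 35.6% of all 27025 RefSeq genes, and the TATA box TATAAA in 5.70% beside 14.1%. Other shares were 39.5% beside 37.8% for CCAAT, 63.9% beside 56.8% for CACCC, 10.8% beside 7.09% for CACGTG, 15.2% beside 16.3% for CCATNTT and 3.80% beside 1.78% for TGACGTCA. The ETS motif ACTTCCGG was in 9.55% beside 3.93%. CACCC can lie within other GC-rich matches. Of the promoters at least 2-fold lower in formative DKO 43.1% held CCGCCC and 1.00% ACTTCCGG, against 70.7% and 10.0% of those at least 2-fold higher. Their median number of CG in the 300 bases was 8 against 23. Promoters within 2-fold held CCGCCC at 69.1% and ACTTCCGG at 10.6%. Among CpG-rich regions alone the formative median was 1.01 with CCGCCC (1696 genes) and 1.07 without (513). Among CpG-poor regions it was 0.29 with the motif (210) and -0.40 without (382). For ACTTCCGG the CpG-rich medians were 0.98 with the motif (234 genes) and 1.03 without (1975). The CpG-poor ones were 0.61 with it (14 genes only) and -0.19 without (578).

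In H3K27ac, promoters on chromosomes 6 and 8 stood apart. The DKO minus WT median was 0.18 in naive and 0.39 in formative cells on chromosome 6 (287 promoter regions) and 0.08 and 0.12 on chromosome 8 (350). On the other 18 chromosomes, leaving out Y, it ran from 0.46 to 0.90 and from 0.69 to 1.02. Other regions of these chromosomes were low too, at -0.52 and -1.05 on chromosome 6 and -0.48 and -1.19 on chromosome 8. Zfp42, Klf2, Nanos3, Snai3, Bcar1, Ccdc194 and Mir7237 lie on chromosome 8 and Adipor2, Prrt3, Wnt5b and Ezh2 on chromosome 6. In the authors' deposited table H3K4me1 set other chromosomes apart. Promoter medians, DKO against WT, were 0.37 in naive and 0.43 in formative cells on chromosome 14. They were 0.41 and 0.38 on chromosome 17, 0.36 and 0.40 on chromosome 8, and 0.70 and 0.58 on chromosome 6. Median RNA folds there were -0.20 and -0.10 on chromosome 14 and -0.24 and -0.18 on chromosome 17. The cause of these chromosome differences was not tested. Without chromosomes 6 and 8 the promoter minus other differences of H3K27ac were 0.71 in naive and 1.47 in formative cells. Chromosomes 14 and 17 were not left out.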

How the data were processed

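H3K27ac CUT&Tag libraries were processed by the submitters with Trim Galore, Bowtie2, SEACR, DiffBind and deepTools against mm10, per the submitters' processing notes, and neither versions nor scaling between groups are stated in these sources. The deposited table holds 1 pooled log2 value per group and region, the authors' log2 DiffBind folds with p-values and adjusted p-values for formative against naive WT, and H3K4me1 and RNA columns from libraries outside the series. Of its 47 columns, 4 level and 6 RNA fold columns of other samples were not used. Differences were computed between pooled log2 values over regions above 0 in all groups, and called at an absolute value of at least 1. This replaces a replicated test for the DKO comparisons, since the pooled values carry no replicates. Total reads are unknown, so counting error cannot be given.

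CpG ratios were computed over each region of GRCm38 with pysam 0.24.0, pandas 2.3.3 and numpy 2.4.6 in Python 3.11.15. Coordinates are as the authors' file gives them, and promoter sequences are from RefSeq (GRCm38.p6). Alternatives were 5 scalings (loess with statsmodels 0.14.6), filters on level and width, 1 region per gene, and stricter thresholds. The scripts were tested on simulated data.

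Named genes were, per comparison, the 6 largest differences in each direction among promoters at least 500 bases wide and above the median level, up to 4 per list with the largest difference past the threshold, Kmt2c and Kmt2d, and the 4 genes with the widest gap between opposite promoters. Other list members named were chosen after their values were seen. Members and lists were chosen with earlier results of these data known. The result of 1 list member is not reported here.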

Additional observations from a re-analysis of the deposited data

How the results depend on the processing

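No paired analysis was possible because the table holds 1 pooled value per group, and for the same reason no replicate was left out. The cause of each shift below was not tested. Scaling between groups moved the promoter medians most. Scaling to ribosomal and respiratory promoters gave 0.53 for formative against naive WT (deposited values -0.31), 0.0735 for formative against naive DKO (-0.17), 0.0084 for naive DKO against WT (0.58), -0.39 for formative DKO against WT (0.79) and -0.39 for the difference of the state changes (0.21). In formative DKO against WT it also turned the list medians of the H3K4 and acetylation machinery to -0.0169, ribosomal to -0.048, respiratory to -0.0298 and Zfp genes to -0.14. Equal medians gave -0.76 in WT, 0.87 in naive DKO, 1.55 in formative DKO and 0.69 for the difference of the state changes. Equal sums gave -0.18, 0.013 in DKO between states, 0.76 in naive and 1.02 in formative DKO. Quantile normalization gave -0.75 in WT, 1.41 in formative DKO and 0.76 for the difference of the state changes, and loess offsets -0.0113 in WT, 0.0741 in DKO between states, 0.67 in formative DKO and 0.10. Promoters at least 1000 bases wide had medians of -0.53, 0.92 and 0.36 in WT, formative DKO and the difference of the state changes.

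Shares past 2-fold moved with these settings. The share higher in formative WT (20.4%) was 36.3% with the ribosomal and respiratory scaling and 13.0% in wide regions, and the share lower (26.7%) was 41.9% with equal medians, 42.6% with quantile normalization, 17.1% with loess and 7.89% with the ribosomal and respiratory scaling. For DKO between states 9.01% higher became 5.79% in wide regions, and 9.74% lower became 6.42% with the last scaling. That scaling gave 14.6% higher and 14.8% lower in naive DKO (30.9% and 8.13%), 3.67% and 28.9% in formative DKO (40.4% and 11.5%), and 8.64% and 31.4% for the difference of the state changes (21.9% and 19.5%). Equal medians and quantile normalization gave 69.7% and 64.0% higher, and 5.96% and 6.77% lower, in formative DKO, and 38.3% and 42.2% higher for the difference of the state changes. Lower shares in formative DKO were 5.04% with loess and 6.60% in wide regions. At a log2 threshold of 1.5 the shares were 13.1% lower in WT, 4.53% and 4.35% in DKO between states, 15.8% and 5.04% in naive DKO, 18.5% and 7.43% in formative DKO, and 10.2% higher for the difference of the state changes. By the authors' test 7.03% of promoters rose at an adjusted p under 0.01, and 20.4% were higher by the pooled threshold.

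Promoter minus other regions was 0.73 in naive and 1.48 in formative DKO against WT and above 0 in every setting run: 0.60 (quantile) and 0.56 (loess) in naive, and 1.02 (concentration quintiles), 1.31 (width quintiles) and 0.66 (loess) in formative cells. In WT it was -0.17 within concentration and -0.59 within width quintiles and -0.0304 with loess, in DKO between states -0.0009 within concentration quintiles and 0.0651 with loess (deposited -0.11), and for the difference of the state changes 0.22, 0.48 and 0.12. The CpG-rich minus CpG-poor difference, whose alternatives were added after seeing the data, was -0.62 within concentration quintiles, -0.44 with loess and -0.93 with the ratio of the central 500 bases in WT (-1.11), 0.0229 and -0.0007 with the first pair in DKO between states (-0.12), 0.63, 0.28 (quantile) and 0.27 (loess) in naive DKO (0.38), 1.15 (quantile), 0.61 (loess) and 1.07 (central bases) in formative DKO (1.27), and 0.49, 0.42 and 0.63 for the difference of the state changes (0.79). Of the named largest differences, 56 of 60 stayed past 2-fold under the 5 scalings.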

Other observations

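Some genes with several promoter regions had acetylation differences of opposite direction at their promoters: 9 of 140 such genes in formative against naive WT and 8 in formative DKO against WT. Pacsin2, a membrane-bending protein on chromosome 15, had 3 promoter regions. The CpG-rich one, at 83464227 to 83465815 (ratio 0.78), had 8.66 in naive WT, 5.81 in formative WT, 9.42 in naive DKO and 8.26 in formative DKO, a fold of -2.91 in the authors' deposited table (DiffBind adjusted p = 3.29e-09). The CpG-poor one at 83447410 to 83449194 (ratio 0.18) had 6.74, 8.23, 8.52 and 9.95. Its fold was 1.63 in the authors' deposited table (DiffBind adjusted p = 0.00027). In WT these promoters changed in opposite directions.

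Ncoa7, a nuclear receptor coactivator on chromosome 10, had the same arrangement. Its CpG-rich promoter (ratio 0.67) had 8.73, 7.25, 8.67 and 8.68 and fell in WT, with a fold of -1.49 in the authors' deposited table (DiffBind adjusted p = 0.00136). Its CpG-poor promoter (ratio 0.19) had 6.51, 8.53, 7.66 and 8.41 and rose. Its fold was 1.93 in the authors' deposited table (DiffBind adjusted p = 0.0107). Lpar1, a receptor for lysophosphatidic acid, had 8.27, 6.02, 8.34 and 6.56 at a promoter of ratio 0.56 and 6.43, 7.98, 7.30 and 7.42 at one of ratio 0.14, where the authors' deposited table has no call (adjusted p = 0.125 by DiffBind). Mutyh, a DNA repair glycosylase, differed between genotypes: its CpG-rich promoter (ratio 0.64) had 8.07 in formative WT and 9.49 in formative DKO, and its CpG-poor promoter (ratio 0.14) had 9.35 and 6.77. These genes were the ones with the widest gaps, so their directions are a description.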
